A study of Bos taurus with 16 samples.

Results

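The folate genes followed here were 8 that carry one-carbon units on folate or bring folate into the cell: the enzymes MTHFD1, MTHFD1L, MTHFD2, SHMT1, SHMT2 and TYMS, the folate receptor FOLR1 and the carrier SLC19A1. Members were taken as the loci whose gene name in the deposited count tables equals one of these symbols. They filled 9 of 22358 loci, because FOLR1 was listed at 2 loci, XLOC_004742 and XLOC_004743, which were kept apart. The members had been chosen with earlier results of these data known, but not by a measured value.

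RNA was sequenced from pools of bovine blastocysts, the embryo stage with an outer trophectoderm and an inner cell mass. By the study's supplementary list a pool held at most a few embryos, C4.1, C4.2 and M8.2 held a single one each, and most Methionine pools held more than the Control pools. The part of embryo number in the values was not tested. Lactating Holstein cows were fed from calving until embryo recovery either the Control diet, in which methionine made up 1.9% of metabolizable protein, or the Methionine diet, the same basal diet with rumen-protected methionine to 2.4%. The cows of both treatments were superovulated and inseminated with semen of 1 of a pair of sires, and 4 cows per treatment gave 2 pools each, so 16 pools in all. Pools are named by treatment letter, cow and pool, C for cows 1 to 4 and M for cows 5 to 8. The labels call the tissue IVF embryos, whereas the study's methods describe embryos flushed from inseminated cows. The cows sequenced had been selected for the number and quality of their embryos, and the RNA of every pool was linearly amplified. Nothing in the labels says that pools of a cow differ in more than the embryos they hold, so p-values over pools measure partly the spread within cows. The supplementary list also gives concentration and quality of the amplified RNA. Concentration was lowest in the pools of cow 8 and lower in C4.1 than in C4.2. Quality numbers of M5.1, M5.2, M6.1, M6.2 and M7.1 were below every Control pool with a value, those of M7.2, M8.1 and M8.2 were not. The part of RNA yield and quality in the values was not tested.

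Tetrahydrofolate, the reduced vitamin, carries single carbons at several oxidation states through parallel pathways in mitochondria and cytosol. Serine is the usual donor. Mitochondria oxidize its carbon to formate, which crosses to the cytosol and is loaded on folate again for purines, for thymidylate and for the methyl group that methionine synthase hands to homocysteine to remake methionine. Cleaving embryos copy their DNA at every division, and thymidylate and purines are the building blocks that this cycle feeds. Reduced folate enters cells through the carrier SLC19A1 or by uptake with folate receptors such as FOLR1, which sits on the outer membrane by a lipid anchor.

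Total counts ran from 5624126 to 7826542 over 15 pools, with a median of 7257007. A limit of 3 counts in a pool then equals 0.383 to 0.533 CPM (counts per 1000000 counts of the pool), and such limits cover counting error only. Pool C3.2 held 1745048 counts. It was left out, following the paper, because few of its uniquely mapped reads fell on annotated exons. The paper names an error in library preparation as a possible reason, so values of C3.2 may not reflect the embryos. The comparisons then rest on 7 Control and 8 Methionine pools. Values of C3.2 are given beside the members where they stand apart. All 6 trophectoderm markers (such as CDX2 and KRT8) and all 3 inner cell mass markers (POU5F1, NANOG and SOX2) were found. Summed trophectoderm markers reached 3100 to 7390 CPM in Control and 2065 to 5766 CPM in Methionine pools. The hypoblast marker SOX17 was at 0 in the 15 pools, and so was the granulosa marker INHA. Counts were found for 2 of the 3 hypoblast markers and for 3 of the 4 cumulus or granulosa markers. Summed hypoblast markers reached 91.2 to 234.3 CPM in Control and 104.9 to 336.3 CPM in Methionine pools. Summed cumulus or granulosa markers reached at most 57.0 CPM in Control and 48.4 CPM in Methionine pools. The 7 leukocyte markers summed to 2362 CPM in pool C2.1, to at most 29.7 CPM in the other Control pools of the 15 and to at most 7.10 CPM in the Methionine pools. CPM values are not per length of transcript, so levels are compared between pools and not between genes. In pools of whole embryos, fewer cells of a type and less RNA per cell cannot be told apart.

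No folate member passed a test of the difference between treatments, and the intervals given below show how large a difference each could still hold. Of the 9 loci, 8 passed the filter on low values (CPM summing to 15 or more across the 15 pools) and 0 of these 8 were called by edgeR's exact test, which required an FDR under 0.10 and a difference of at least 2-fold. Over all 10519 loci tested, 110 were called, which is 1.05%. FDR of the members lay between 0.802 and 1.0 in that test. No member reached an unadjusted p under 0.05 by the exact test, against 8.54% of all loci tested, nor did any by edgeR's quasi-likelihood test on pools or on cow sums, by DESeq2 or by limma voom fitted with cow as random effect. The quasi-likelihood test on counts summed per cow called 0.0% of the loci, so it separates no member from the rest. Cow means of the 2 treatments did not overlap for 2.21% of all loci tested and for 0 members. Fold changes (log2, Methionine over Control) were positive for 5 of the 8 loci and negative for 3, with a median of 0.16 against -0.05 over all loci.

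**Figure D1:**
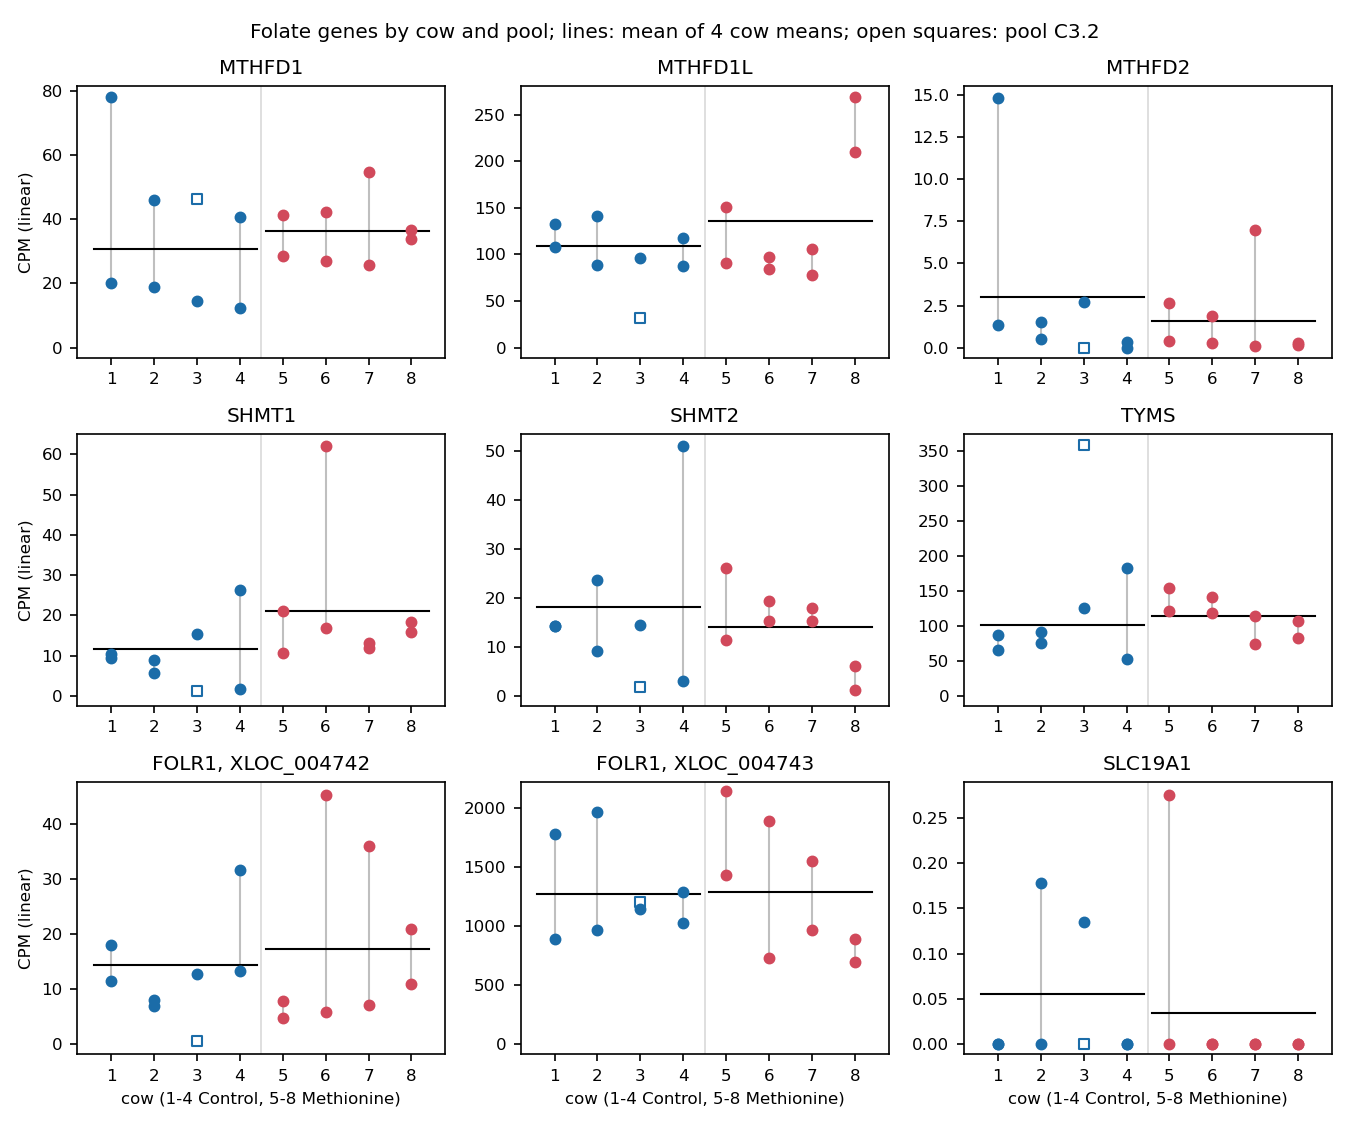
CPM of the 9 folate loci in each pool, by cow (1 to 4 Control in blue, 5 to 8 Methionine in red), with a grey line joining the pools of a cow and a black line at the mean of the 4 cow means. Pools of a cow often lie far apart, as for SHMT2 in cow 4, and the open square is pool C3.2, which is not part of the means.

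The cytosolic and the mitochondrial serine hydroxymethyltransferases, SHMT1 and SHMT2, move the carbon of serine onto tetrahydrofolate and release glycine. SHMT1 ran from 1.65 CPM (C4.1) through a median of 9.45 to 26.2 CPM (C4.2) in Control pools and from 10.6 through 16.3 to 62.0 CPM (M6.1) in Methionine pools. All 8 Methionine pools exceeded the Control median and 5 of 7 Control pools fell below the lowest Methionine pool, yet the 2 pools of cow 4 were both ends of the Control range. Averaged per cow, SHMT1 had 11.6 ± 3.77 CPM in Control and 21.2 ± 12.3 CPM in Methionine (SD, n = 4 cows; exact permutation test over 70 assignments of the 8 cows, two-sided, p = 0.114), a ratio of 1.82. Cow 6, with 39.4 CPM, was the highest, while cow 7 (12.6 CPM) stood below Control cows 3 (15.5 CPM) and 4 (13.9 CPM). The log2 fold change was 0.92 by edgeR's exact test (FDR = 0.802), and the DESeq2 standard error was 0.52. From limma voom, the 95% interval ran from -0.15 to 2.13, so that values from a fold of 0.904 to one of 4.38 were not distinguished with 4 cows a treatment. With 1 cow left out, the difference of cow means, 9.59 CPM, ran from 3.52 CPM without cow 6 (exact permutation p = 0.229) to 12.5 CPM without cow 7 (exact permutation p = 0.0286, the smallest that 35 assignments of 7 cows allow). Without cow 6 the log2 fold change was 0.47.

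For SHMT2, the mitochondrial enzyme, the estimate had the opposite sign and was within its error. Control pools ran from 3.13 CPM (C4.1) through 14.3 to 50.9 CPM (C4.2), and Methionine pools from 1.25 CPM (M8.1) through 15.3 to 26.1 CPM (M5.2). The treatments overlapped throughout, and the extremes of the Control range were again the pools of cow 4, a 16.2-fold gap within a single cow. By cow, SHMT2 stood at 18.1 ± 6.05 CPM in Control and 14.1 ± 7.02 CPM in Methionine (SD, n = 4 cows; exact permutation p = 0.571). Cow 8 was the lowest with 3.67 CPM and cow 4 the highest with 27.0 CPM, whereas Methionine cows 5 to 7 lay between 16.7 and 18.8 CPM and Control cows 1 to 3 between 14.3 and 16.4 CPM. The exact test in edgeR gave a log2 fold change of -0.40 (FDR = 1.0) and limma voom a 95% interval from -1.72 to 0.92. Without cow 8 the log2 fold change was -0.07 and without cow 4 -0.16, and the difference of cow means, -3.94 CPM with all cows, was then -0.46 and -0.95 CPM. In C3.2, the pool left out, SHMT1 had 1.15 CPM and SHMT2 1.72 CPM, the former under and the latter at the limit of 3 counts in that pool, which is 1.72 CPM.

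The enzymes of the MTHFD family interconvert the carbon on folate. MTHFD1, a trifunctional cytosolic protein that includes the formate-loading step, ran from 12.4 CPM (C4.1) through 20.1 to 78.3 CPM (C1.2) in Control and from 25.8 through 35.2 to 54.7 CPM in Methionine pools. Every Methionine pool lay above the Control median and 4 of 7 Control pools lay below the lowest Methionine pool, but the highest pool of the study was a Control pool. Cow means were 30.7 ± 14.4 CPM against 36.2 ± 2.69 CPM (SD, n = 4 cows; exact permutation p = 0.514). Control cows spread from 14.6 CPM (cow 3) to 49.2 CPM (cow 1), and the Methionine cows from 34.6 to 40.3 CPM. Cow 3 is represented by pool C3.1 alone, and C3.2, the pool left out, had 46.4 CPM. With all 16 pools the difference of cow means was 1.57 CPM (exact permutation p = 0.829). Whether the difference in spread between treatments exceeds what cows give was not tested. The log2 fold change was 0.13 in edgeR's exact test (FDR = 1.0), with a 95% interval by limma voom from -0.45 to 1.16. The difference of cow means, 5.56 CPM, was 0.176 CPM without cow 3 (exact permutation p = 1.0) and 11.7 CPM without cow 1, when the treatments no longer overlapped (exact permutation p = 0.0286, the smallest that 35 assignments of 7 cows allow). On the log2 scale the fold change was 0.02 without cow 3, 0.01 without cow 4 and 0.54 without cow 1, so the value rests on which Control cows are counted.

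MTHFD1L is the mitochondrial synthetase that releases formate from formyl-tetrahydrofolate. Control pools ran from 87.2 through 107.8 to 141.4 CPM and Methionine pools from 78.2 through 101.3 to 269.1 CPM. Cow 8 alone held the top pools, M8.1 with 269.1 CPM and M8.2 with 210.4 CPM, and the remaining Methionine pools reached at most 151.2 CPM. Cow means came to 108.7 ± 10.9 CPM in Control and 135.8 ± 70.7 CPM in Methionine (SD, n = 4 cows; exact permutation p = 0.771). The log2 fold change of 0.31 (edgeR exact test, FDR = 0.992) turned to -0.20 when cow 8 was left out, and the 95% interval by limma voom ran from -0.47 to 0.80. Pools of a cow were close for this gene, with a median ratio of higher to lower pool of 1.35 and a highest of 1.66. The median ratio was lower for TYMS (1.29). It was higher for SHMT1 (1.60), FOLR1 XLOC_004743 (1.61), FOLR1 XLOC_004742 (1.91), MTHFD1 (2.12), SHMT2 (2.28) and MTHFD2 (6.59). Pool C3.2 had 32.1 CPM, under every one of the 15 pools.

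MTHFD2, the mitochondrial dehydrogenase and cyclohydrolase known for its expression in embryonic and dividing cells, was near the limit of detection. Between 0 and 112 counts per pool were found, and 6 of 15 pools had fewer than 3 counts. Control pools ran from 0 CPM (C4.2) through 1.35 to 14.8 CPM (C1.1), Methionine pools from 0.128 through 0.343 to 6.99 CPM (M7.2). A single pool, C1.1, held 46.3% of the counts summed over the 15 pools, and the other pool of that cow had 1.35 CPM. MTHFD2 cow means were 2.99 ± 3.54 CPM and 1.59 ± 1.42 CPM (SD, n = 4 cows; exact permutation p = 0.686). The log2 fold change of -0.98 (edgeR exact test, FDR = 0.995) became 0.63 without cow 1, and its 95% interval by limma voom, -2.96 to 1.83, was the widest of the 8 loci. Its spread between pools was many times the counting error, so counting alone does not set the width of that interval.

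Thymidylate synthase, TYMS, spends methylene-tetrahydrofolate to make the thymidylate of DNA. Control pools had 52.8 CPM (C4.1) to 183.1 CPM (C4.2) with a median of 87.5, and Methionine pools 74.5 to 154.2 CPM with a median of 115.8. Of 8 Methionine pools, 6 lay above the Control median, and the top and bottom pools both belonged to Control cow 4. Averaged per cow, TYMS gave 100.8 ± 24.8 CPM against 114.1 ± 22.8 CPM (SD, n = 4 cows; exact permutation p = 0.486), a log2 fold change of 0.20 (edgeR exact test, FDR = 1.0) and a 95% interval by limma voom from -0.30 to 0.86. C3.2 stood far outside, with 358.7 CPM from 626 counts, higher than any of the 15 pools. Adding it turned the difference of cow means from 13.3 to -15.8 CPM and the log2 fold change to -0.54. In the RefSeq annotation of the ARS-UCD2.0 assembly TYMS overlaps ENOSF1, and the strand setting of the authors' counting was not stated, so reads from the shared stretch cannot be told apart. The ENOSF1 locus itself had 0 to 199 counts in the 15 pools and 1 count in C3.2. In the same annotation MTHFD2 overlaps SLC4A5, which had 0 to 10 counts, SHMT2 overlaps NDUFA4L2, which had 0 to 1, and SHMT1 overlaps SMCR8, for which no count is given here.

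Of the folate uptake genes, FOLR1 had its 2 loci next to each other in the tables, and their levels are not ranked because their lengths were not used here. XLOC_004743 had between 5140 and 15574 counts per pool, from 894.6 CPM (C1.1) through 1141 to 1964 CPM (C2.2) in Control and from 694.1 CPM (M8.2) through 1201 to 2146 CPM (M5.1) in Methionine pools. Control lay inside the Methionine range. Cow means were nearly level, 1276 ± 155 CPM and 1289 ± 408 CPM (SD, n = 4 cows; exact permutation p = 1.0), and ranged in the Methionine cows from 793.8 CPM (cow 8) to 1791 CPM (cow 5). The log2 fold change was -0.05 (edgeR exact test, FDR = 1.0), and the interval by limma voom, from -0.59 to 0.43, was the narrowest of the 8 loci and covers folds of 0.667 to 1.35. The difference of cow means, 13.5 CPM, changed sign under 7 of 13 other ways of averaging, scaling or choosing pools and cows, so no direction is read from it. Pool C3.2, with 1207 CPM, was within the range.

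XLOC_004742 had 34 to 269 counts per pool, from 6.93 CPM (C2.1) through 12.7 to 31.6 CPM (C4.2) in Control and from 4.69 CPM (M5.1) through 9.36 to 45.3 CPM (M6.2) in Methionine pools. The high Methionine values came from M6.2 and from M7.2 with 36.0 CPM, whereas the other pools of those cows, M6.1 and M7.1, had 5.86 and 7.16 CPM. By cow, 14.3 ± 6.23 CPM stood against 17.3 ± 8.39 CPM (SD, n = 4 cows; exact permutation p = 0.571). The exact test of edgeR gave a log2 fold change of 0.25 (FDR = 1.0) and limma voom -0.18, with a 95% interval from -1.35 to 0.995. Over the 15 pools the loci were hardly related (Pearson r = 0.13, Spearman rho = 0.08 on log2(CPM + 1), n = 15 pools). The tables list the FOLR1 loci and then FOLR2, and no locus with the name FOLR3, while RefSeq on ARS-UCD2.0 has FOLR3, FOLR1 and FOLR2 side by side. These receptors are close relatives, the count tables rest on another assembly, bosTau7, and which gene each locus stands for was not determined, so both are uncertain.

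SLC19A1, the reduced folate carrier, was hardly seen. It had 4 counts in all over the 15 pools, 1 each in C2.1 and C3.1 and 2 in M5.1, and 12 pools were at 0. No pool reached the limit of 3 counts, so levels up to 0.383 to 0.533 CPM are allowed by the depth and no fold or test is given.

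**Figure D2:**
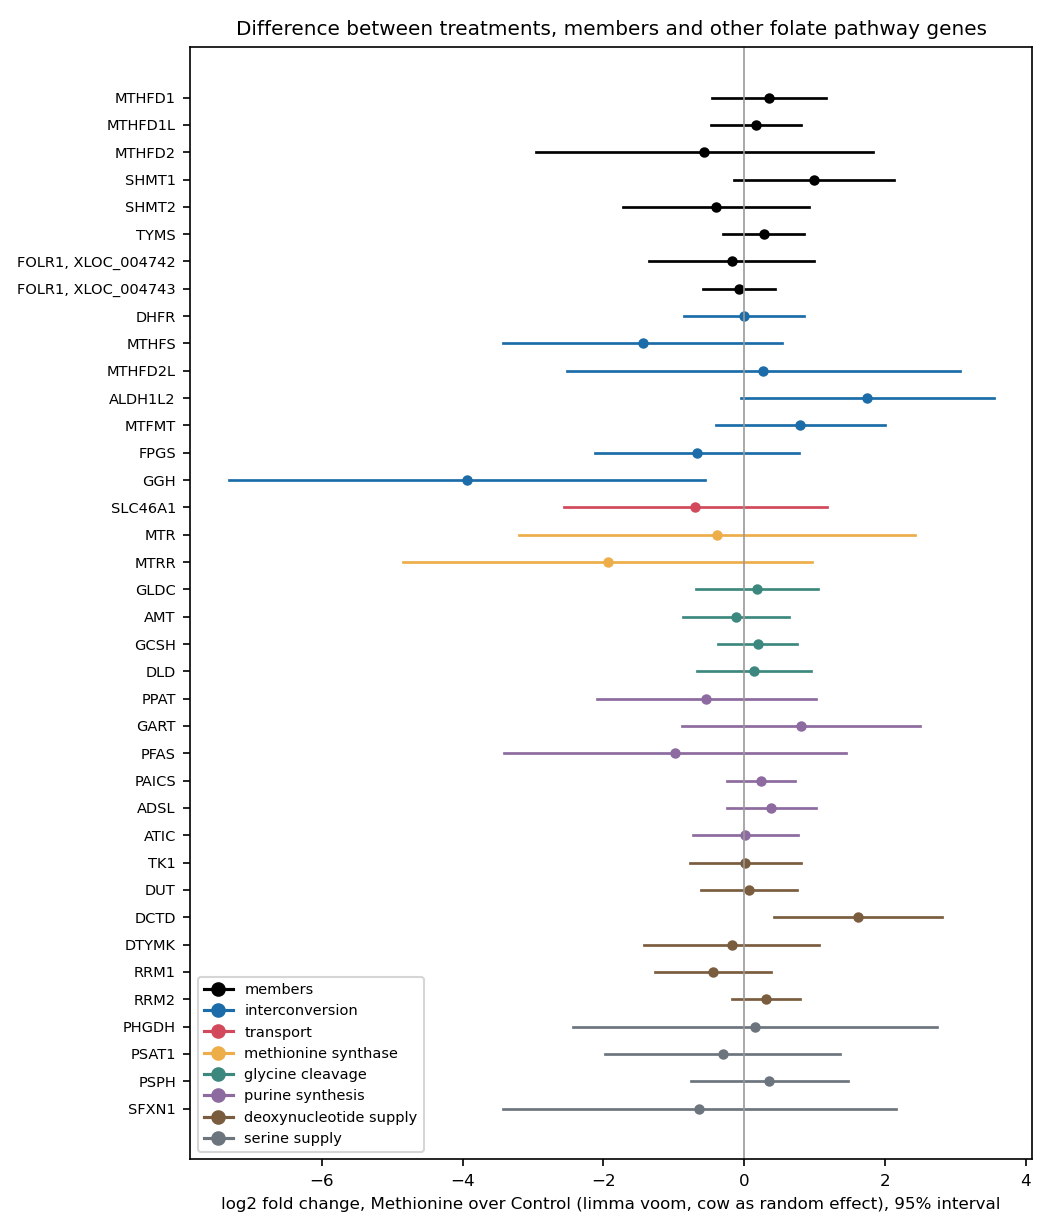
Log2 fold change, Methionine over Control, with 95% intervals from limma voom (cow as a random effect) for the 8 tested folate loci in black and for 30 other genes of the pathway coloured by list. All 8 black intervals include 0, and of the other genes those of DCTD and GGH do not.

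The 8 loci varied far more between pools than counting error gives. For XLOC_004743 the coefficient of variation over the 15 pools was 36.8%, where counting alone gives 1.06%. At the other end MTHFD2 had 172% against 25.0%, and TYMS, with 33.7%, varied the least. Counting error is that of reads alone and leaves out the amplification and the few embryos per pool, whose parts were not tested. The median coefficient of variation of the 8 loci was 61.2%, against 80.4% over all loci tested, which also differ in abundance. Within cows, the higher pool exceeded the lower by up to 54.7-fold for MTHFD2 (where the lower pool had 1 count), 16.2-fold for SHMT2, 15.9-fold for SHMT1, 7.73-fold for FOLR1 XLOC_004742 and 3.90-fold for MTHFD1. The largest ratios within a cow were smaller for TYMS (3.47), FOLR1 XLOC_004743 (2.59) and MTHFD1L (1.66), the last of which differed mainly by cow 8.

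**Figure D3:**
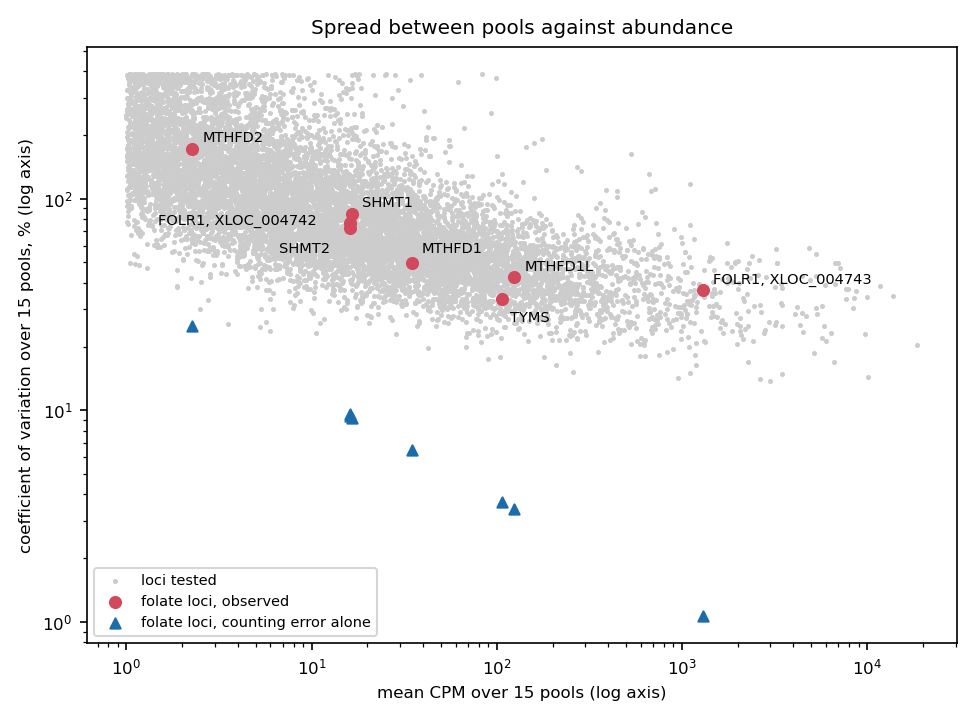
Coefficient of variation over 15 pools against mean CPM, both on log axes, for the 10519 loci tested (grey), the 8 folate loci (red) and the value that counting error alone gives for them (blue triangles). The red points lie inside the grey cloud and above their triangles, from 33.7% for TYMS to 172% for MTHFD2.

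A few pools stood out in several members at once, those of cow 4 most plainly. Whether this exceeds what unrelated loci give was not tested. C4.1 was the lowest of the 15 pools for 3 of the 8 loci (MTHFD1, SHMT1 and TYMS), while C4.2 from the same cow was the highest for SHMT2 and TYMS and the lowest for MTHFD2. M6.2 exceeded the 15-pool median in 7 of the 8 loci, and M7.1 fell below it in 7. C4.2 was also the highest Control pool for summed trophectoderm markers (7390 CPM, the next Control pool having 6987) and inner cell mass markers (115.3 CPM, the next 105.1). The gap was wider for cumulus or granulosa markers (57.0 CPM, the next Control pool having 22.4). M6.1, the highest pool for SHMT1, was the highest Methionine pool for cumulus or granulosa (48.4 CPM) and hypoblast markers (336.3 CPM). The part of these markers in the high values was not tested. C3.2 fell below all 15 pools for 3 loci (MTHFD1L, SHMT1 and FOLR1 XLOC_004742), above them for TYMS and inside the range for the other 4. SHMT1 had 2 counts in C3.2 and FOLR1 XLOC_004742 had 1, under the limit of 3 counts. For SHMT1 the place of C3.2 below C4.1 (1.65 CPM) is therefore not resolved, as that limit equals 1.72 CPM in C3.2.

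**Figure D4:**
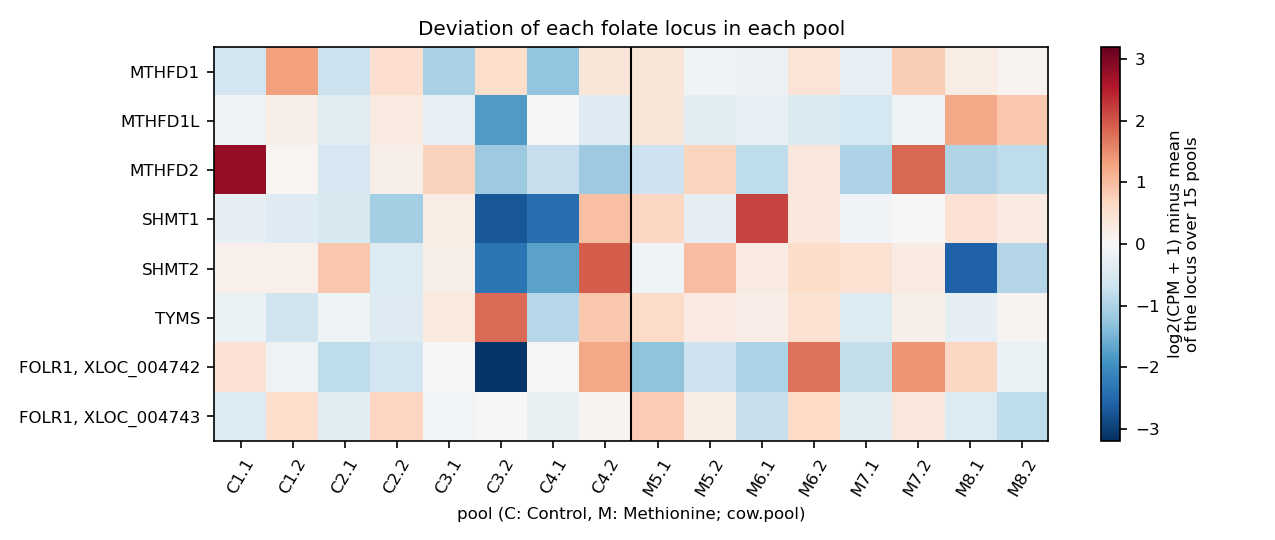
Log2(CPM + 1) of each folate locus in each of the 16 pools minus the locus mean over the 15 pools analysed, with Control left and Methionine right of the black line. Red and blue alternate within cows, most plainly between C4.1 and C4.2, and no row splits by treatment.

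Pairs of members were compared over the 15 pools on log2(CPM + 1), as a description, since pools of a cow are not independent and all values of a pool share a library. Of 21 pairs among the 7 loci with a mean of at least 10 CPM, 6 were negative, and 2 went beyond 0.6 in size. MTHFD1L and SHMT2, consecutive mitochondrial steps in the supply of formate by way of MTHFD2, were high in opposite pools (r = -0.81, rho = -0.89, n = 15 pools). The pools of cow 8 are at the end of that relation, with MTHFD1L high and SHMT2 low, and r was -0.60 without M8.1 and M8.2. SHMT1 and TYMS were high and low in the same pools (r = 0.71, rho = 0.71, n = 15 pools), also without C4.1 and M6.1 (r = 0.74). SHMT1 makes the methylene-tetrahydrofolate that TYMS uses. Across the 8 cow means, r was -0.88 for the former pair and 0.69 for the latter.

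**Figure D5:**
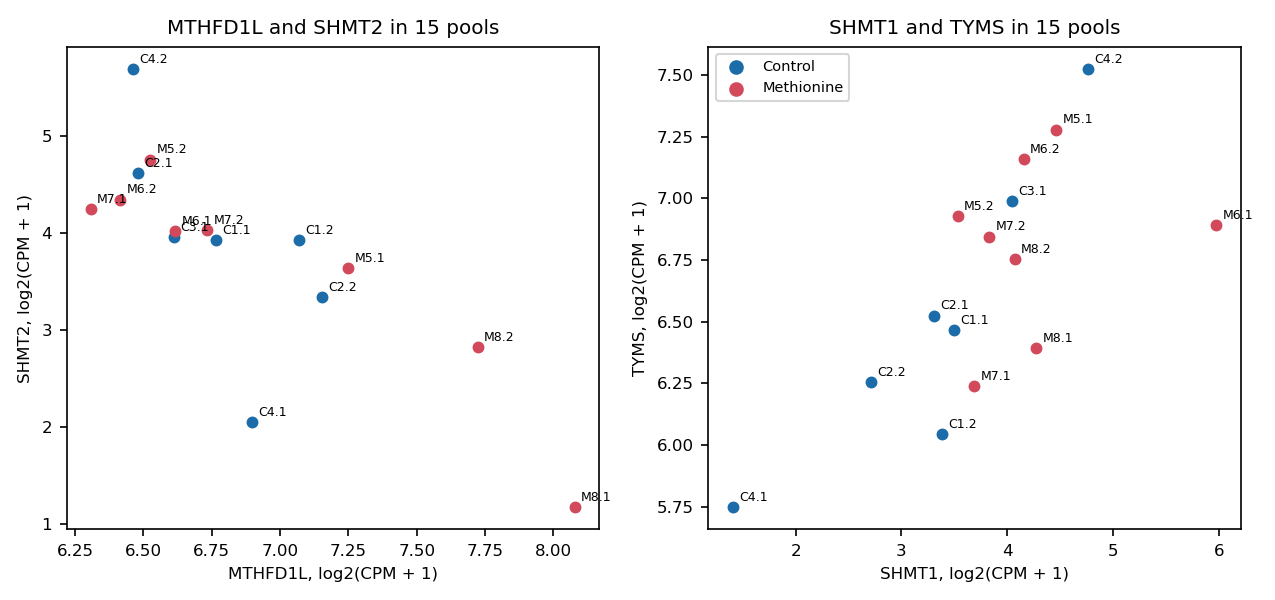
Log2(CPM + 1) in the 15 pools for MTHFD1L against SHMT2 (left) and SHMT1 against TYMS (right), each point a pool named by treatment letter, cow and pool. The left points fall from upper left to M8.1 at lower right. On the right they rise from C4.1 to C4.2, the highest for TYMS, while M6.1 lies farthest right. For SHMT1, 5 of 7 Control pools lie left of the lowest Methionine pool, so the low end of that trend is Control.

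Among 5121 named loci with a mean of at least 10 CPM, the one most like a member over the 15 pools was taken by the highest Pearson correlation, and it is given for 6 of the 7 loci. TYMS was most like STARD3NL (r = 0.86), MTHFD1 most like HADHA (r = 0.85) and SHMT2 most like LYRM7 (r = 0.845). MTHFD1L went with TP53RK (r = 0.83), SHMT1 with PDIA3 (r = 0.80) and FOLR1 XLOC_004742 with OIP5 (r = 0.76). Leaving out the 2 pools farthest from the member's median brought these to between 0.56 (TP53RK) and 0.75 (HADHA). None of the 6 had another member as its closest partner, and with so many candidates and 15 pools the highest correlation is large by selection.

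Of 36 other genes of the folate pathway, 34 had a locus with their name and 30 passed the filter. None of the 30 was called by edgeR's exact test, against 1.05% of all loci, or by DESeq2, which called 67 of the 10519 loci. The quasi-likelihood tests on pools and on cow sums and limma voom called 0 of all loci, so they separate none of these genes from the rest. Fold changes were positive for 15 and negative for 15, with a median log2 fold change of -0.02. FOLR3 and SLC25A32, the mitochondrial folate carrier, were not among the gene names.

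DCTD, the deaminase that turns deoxycytidylate into the deoxyuridylate that TYMS methylates, had the clearest difference of the 30. Control pools ran from 1.65 through 8.22 to 11.4 CPM and Methionine pools from 6.54 (M6.1) through 19.4 to 33.4 CPM. Of 8 Methionine pools, 7 exceeded every Control pool, and M6.1 was inside the Control range. By cow, DCTD had 6.73 ± 1.56 CPM in Control and 19.5 ± 7.95 CPM in Methionine (SD, n = 4 cows), and every Methionine cow lay above every Control cow (exact permutation p = 0.0286, the smallest that 70 assignments allow). Such separation was found in 2.21% of all loci tested and in 1 of these 30. The log2 fold change was 1.58 with an unadjusted p of 0.00927 in edgeR's exact test, one of 8.54% of loci under 0.05, and missed the threshold once adjusted over all loci (FDR = 0.269, and 0.758 in the quasi-likelihood test on cow sums). With C3.2, a Control pool with 21.8 CPM, the exact permutation p was 0.0571, and the cow means then overlapped. The same p came when any Control cow was left out, although the cow means then still did not overlap. With any Methionine cow left out, or without C2.1, the exact permutation p stayed at 0.0286. It did so too with TMM library sizes, on the log2 scale and with counts of a cow summed.

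Deoxynucleotide supply, DCTD included, had 0 calls among its 6 tested genes, and 3 log2 fold changes were positive. RRM2, the small subunit of ribonucleotide reductase, had 331.3 ± 82.7 CPM in Control and 409.0 ± 76.2 CPM in Methionine (SD, n = 4 cows), a log2 fold change of 0.29 (edgeR exact test, FDR = 0.974). DTYMK, the kinase after TYMS, had 5.74 ± 2.60 and 5.22 ± 1.37 CPM (SD, n = 4 cows). Purine synthesis, where formyl-tetrahydrofolate gives its carbon in reactions of GART and ATIC, was called in 0 of 6. PAICS gave 392.1 ± 96.3 and 460.0 ± 91.7 CPM (SD, n = 4 cows) with all 8 Methionine pools above the Control median of 314.6 CPM (FDR = 1.0, edgeR exact test). PFAS had 3.35 ± 1.79 and 1.11 ± 0.878 CPM (SD, n = 4 cows; exact permutation p = 0.0571).

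Folate interconversion and storage had 0 calls in 7 tested genes of 10. FPGS, which adds the glutamate tail that keeps folate in the cell, had 52.3 ± 23.8 CPM in Control and 25.7 ± 16.2 CPM in Methionine (SD, n = 4 cows; log2 fold change -1.005, FDR = 0.783, edgeR exact test). ALDH1L1, the cytosolic formyl-tetrahydrofolate dehydrogenase, had 0 counts in all 15 pools. GGH, the hydrolase that removes the tail, is named because it had an unadjusted p under 0.05, after its values were seen. It ran from 0.269 through 2.999 to 125.6 CPM (C4.1) in Control and from 0 through 0.160 to 32.5 CPM (M5.1) in Methionine pools. C4.1 held 46.8% of the GGH counts summed over the 15 pools. The log2 fold change of GGH, -3.27, did not pass after adjustment (edgeR exact test, FDR = 0.359).

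The glycine cleavage system, which also loads a carbon on folate in mitochondria, was called in 0 of 4 genes. GCSH, its carrier protein, had 1054 ± 149 CPM in Control and 1275 ± 457 CPM in Methionine (SD, n = 4 cows), and 5 Methionine pools exceeded every Control pool while 2 fell below them all. DLD, shared with other dehydrogenases, had 40.5 ± 12.0 and 42.9 ± 14.4 CPM (SD, n = 4 cows). Serine supply was called in 0 of 4. PSAT1 had 27.9 ± 26.5 and 16.8 ± 15.1 CPM, and PHGDH, the entry step of serine synthesis, 1.22 ± 1.80 and 1.57 ± 1.71 CPM (SD, n = 4 cows).

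Methionine synthase, where the folate and methionine cycles meet, was sparse. MTR had 1.71 ± 1.97 CPM in Control and 2.49 ± 2.85 CPM in Methionine, and 4 of the 15 pools were at 0. MTRR, its reductase, had 7.56 ± 8.15 and 3.83 ± 4.59 CPM (SD, n = 4 cows), and 7 pools had fewer than 3 counts. Neither was called, with edgeR exact test FDR of 1.0 and 0.968. Among the transporters, SLC46A1, the proton-coupled folate carrier, had 4.96 ± 2.87 and 4.53 ± 3.19 CPM (SD, n = 4 cows; FDR = 1.0, edgeR exact test). FOLR2, a receptor known from macrophages, had counts only in the Control pools C2.1 and C3.1, and C2.1 was also the pool with 2362 CPM of leukocyte markers. The part of those markers in the FOLR2 counts was not tested.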

How the data were processed

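Embryo RNA was amplified, sequenced and processed by the authors, who mapped reads to bosTau7 and counted them per gene; the submitters' processing notes name TopHat2 2.0.4, Cufflinks 2.0.2 and HTSeq. The deposited files hold raw counts, 1 table per pool, and each locus was entered once. Members and lists were chosen with earlier results of these data known. CPM used the pool total. Following the study's methods, loci with summed CPM of at least 15 over 15 pools were fitted with TMM normalization, common and tagwise dispersion and the exact test in edgeR 4.0.16 (R 4.3.3), with Benjamini-Hochberg adjustment. That test treats the pools of a cow as independent, so edgeR's quasi-likelihood test on cow sums, limma 3.58.1 voom and an exact two-sided permutation test of cow means over 70 assignments (smallest p 0.0286) are given beside it. Standard errors come from DESeq2 1.42.0. Code was tested on simulated data.

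Named pathway genes were those called, those with cow means that did not overlap, and in each list the highest and lowest mean CPM. Alternatives covered the test, normalization, filter, threshold, pools and cows left out, scale, and the pool number as a block. Pool numbers did not pair the samples (mean correlation of deviations -0.0076 for same-numbered pools of opposite treatments and 0.0076 for others). The diet percentages come from the study's methods. The lane and the sire of each pool were not given in the sources used here. Reads that overlapping genes share could not be assigned without the strand setting. The locus most like FOLR1 XLOC_004743 is not reported here.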

Additional observations from a re-analysis of the deposited data

Results flagged for a closer look

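In groups of 7 or 8 pools, a highest or lowest pool was singled out where its gap to the nearest other pool was large against the whole range of the group (Dixon's critical value at the 95% level). Of 42 groups looked at, 6 held such a pool, 4 of them among the 16 groups of the members. Chance alone flags about 5% where values are normally distributed. Whether these CPM are was not tested, so the number flagged is not read as an excess. MTHFD2 stood out in C1.1 with 14.8 CPM among the Control pools and in M7.2 with 6.99 CPM among the Methionine pools. SHMT1 did so in M6.1 with 62.0 CPM and SHMT2 in C4.2 with 50.9 CPM. Of the other pathway genes, FPGS stood apart in M6.1 with 77.9 CPM and MTRR in C4.1 with 34.3 CPM.

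TYMS in pool C3.2, which no comparison uses, had 358.7 CPM, above the highest of the 15 pools.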

How the results depend on the processing

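The count of folate members called was 0 under every alternative run. Over all loci, the 110 calls became 0 with edgeR's quasi-likelihood test on pools, on cow sums or taking pool numbers as a replicate block, 0 with voom, 67 with DESeq2, 55 with no filter, 6 with at least 1 CPM in 7 pools, 356 with all 16 pools, 64 without C2.1, 60 at FDR under 0.05 and 62 to 153 with a cow left out. The paired fit changed no call of a member. Log2 fold changes turned sign with all 16 pools for MTHFD1 (-0.10) and TYMS (-0.54), and with voom for FOLR1 XLOC_004742 (-0.18). With a cow left out they ran from -1.77 to 0.63 for MTHFD2, -0.20 to 0.49 for MTHFD1L, -0.0094 to 0.58 for FOLR1 XLOC_004742 and -0.16 to 0.10 for XLOC_004743. The difference of cow means of XLOC_004743 became -111.1 CPM without C2.1, -13.2 with TMM library sizes, -16.1 with counts summed, -0.0494 on the log2 scale and -153.7 to 178.6 with a cow left out. That of XLOC_004742 was -0.0310 on the log2 scale, that of TYMS -15.8 with all pools, and with a cow left out those of MTHFD2 and MTHFD1L ran from -2.35 to 0.288 and from -7.48 to 42.2 CPM. SHMT1 and SHMT2 kept their sign in all alternatives run but not their size: with a cow left out the SHMT1 difference ran from 3.52 CPM (without cow 6, exact permutation p = 0.229) to 12.5 CPM (without cow 7, exact permutation p = 0.0286, the smallest possible) and that of SHMT2 from -5.50 to -0.46 CPM (without cow 8). The causes were not tested. With 4 cows per treatment, the spread between pools exceeded counting error for all 8 tested loci, and depth limits SLC19A1.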
